A study of Mus musculus with 36 samples.

Results

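Messenger RNA of the nucleus accumbens was compared between mice given modafinil, which promotes wakefulness and inhibits dopamine reuptake, and mice given saline vehicle. The nucleus accumbens is the ventral part of the striatum, a target of midbrain dopamine neurons in the reward circuit. The members were the 5 arrays titled modafinil and the 5 titled vehicle of this region, 10 of the 36 arrays of the series, and they were chosen by their titles and not by measured values. The other arrays came from the ventral tegmental area (10 arrays) and the prefrontal cortex (16 arrays).

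All mice of both groups were male C57B1/6J weighing 20 to 26 g, and their age was not given in the labels. Both groups underwent place preference conditioning on days 3 to 10, in which injections were paired with the compartments of a box. Modafinil was given at 65 mg per kg on the paired days and saline on the alternate days, whereas vehicle mice received saline throughout. The test took place on day 11, and the mice were killed directly after it, 24 h after the last dose. Tissue was punched at 1 mm diameter from slices of 100 µm, and RNA of 2 tissue pieces was pooled where the RNA integrity number was above 7. In 5 samples of the series one piece fell below that value and was not pooled. Whether the arrays came from separate mice is not given in the labels, and the p-values then measure the spread between samples alone, which may be technical. RNA was labelled from its 3′ end and hybridised to Affymetrix Mouse 430_2 arrays, which read 1 colour and measure each transcript with 1 or more probe sets near its 3′ end. Values are log2 values, on which a difference of 1 is a doubling of signal, and their precision is limited by the number of arrays.

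The labelled tissue was matched by its markers. Drd1, the dopamine receptor of direct pathway neurons, lay at the 98.5th percentile of all probe sets in these arrays, Ppp1r1b, a phosphatase inhibitor of striatal projection neurons, at the 95.6th, and Drd2, the dopamine receptor of indirect pathway neurons, at the 84.1th. The vehicle mean of Drd1 was 11.57 here and 6.57 in the ventral tegmental area. One library stood apart. In vehicle array 1 the 99th percentile of all values was 11.43 against 11.88 to 11.93 in the other 9 arrays, and its bright probe sets (mean of 12 or more in the others) were lower by a median of 0.76. Results are therefore given with and without that array where it moves them.

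Much of what follows concerns interferon-induced genes. Interferons are secreted proteins of the immune response that bind receptors on the cell surface and, through the JAK kinases and STAT and IRF transcription factors, switch on genes for antiviral defence, intracellular GTPases and antigen presentation. The activated factors bind short promoter elements, the interferon-stimulated response element (ISRE) and the gamma-activated site (GAS). In the brain, resident neurons, glia and vessel cells can all carry out this response, and its genes are low at rest.

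The promoters shown belong to genes with some of the largest differences and were chosen for carrying these elements. Ciart, which carries neither, was added as a clock gene. The windows are the 250 bases before the annotated start, from RefSeq on GRCm38.p6, 5′ to 3′ on the gene's strand. Capitals mark the ISRE, searched as GAAA, any 2 bases and GAAA again, the GAS, searched as TTCNNNGAA, and, for the clock gene Ciart, the E-box CACGTG, all on both strands.
Igtp, chr11:58199306-58199555, plus strand: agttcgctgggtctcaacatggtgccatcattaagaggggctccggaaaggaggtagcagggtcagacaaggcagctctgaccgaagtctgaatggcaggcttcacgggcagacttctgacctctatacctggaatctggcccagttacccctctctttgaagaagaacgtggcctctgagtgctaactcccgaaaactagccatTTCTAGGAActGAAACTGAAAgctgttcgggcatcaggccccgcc
Irgm2, chr11:58214727-58214976, plus strand: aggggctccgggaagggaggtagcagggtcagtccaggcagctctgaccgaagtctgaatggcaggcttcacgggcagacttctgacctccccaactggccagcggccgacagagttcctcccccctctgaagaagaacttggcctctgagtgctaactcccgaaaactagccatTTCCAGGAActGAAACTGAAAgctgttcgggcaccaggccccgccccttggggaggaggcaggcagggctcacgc
Gbp3, chr3:142559794-142560043, plus strand: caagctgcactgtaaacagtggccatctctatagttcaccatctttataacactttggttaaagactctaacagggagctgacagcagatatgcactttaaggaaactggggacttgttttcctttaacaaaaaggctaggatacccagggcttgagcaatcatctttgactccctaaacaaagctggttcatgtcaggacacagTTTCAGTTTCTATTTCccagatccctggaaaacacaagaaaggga
B2m, chr2:122147437-122147686, plus strand: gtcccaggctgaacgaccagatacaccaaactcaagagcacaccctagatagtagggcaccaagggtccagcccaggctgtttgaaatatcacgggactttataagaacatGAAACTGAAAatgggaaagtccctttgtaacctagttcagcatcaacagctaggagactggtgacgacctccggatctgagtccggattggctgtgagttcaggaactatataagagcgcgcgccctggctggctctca
Ciart, chr3:95882229-95882478, minus strand: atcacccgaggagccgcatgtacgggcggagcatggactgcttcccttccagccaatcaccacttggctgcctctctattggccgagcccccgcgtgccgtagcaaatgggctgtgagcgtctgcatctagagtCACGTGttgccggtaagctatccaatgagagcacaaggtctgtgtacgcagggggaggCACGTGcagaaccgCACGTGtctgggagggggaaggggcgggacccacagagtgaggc
The neighbouring genes Igtp and Irgm2 carry the same arrangement, a GAS match followed by an ISRE match, which begins 34 bases before the start in Igtp and 64 in Irgm2. The Gbp3 window holds 2 ISRE matches on the opposite strand, which overlap each other, and Gbp3 has a second annotated start whose window holds none. B2m has an ISRE match that begins 139 bases before its start. Over windows of 300 bases, which add 50 bases after the start, an ISRE match was found in 3.44% of 32851 RefSeq promoters, a GAS match in 8.3% and an E-box in 7.15%. An ISRE match was found in 3 of 3 guanylate-binding protein genes with a RefSeq promoter, 3 of 4 immunity-related GTPase genes and 7 of 10 type I interferon antiviral genes. It was found in 1 of 4 class I, 1 of 4 immunoproteasome, 1 of 6 peptide loading and 1 of 9 receptor, kinase and feedback genes. A GAS match was found in 1 of 3, 2 of 4 and 4 of 10 genes of the first lists and in 3 of 9 of the last. Ifi47, the GTPase gene without an ISRE match, had no GAS match. A gene with several windows counted if any matched. These matches describe letters in a window and not binding.

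In the nucleus accumbens the test called no probe set at the adjusted threshold. Interferon-induced genes nevertheless had the largest positive differences measured, carried by modafinil arrays 1, 2 and 5, with array 3 between and array 4 at the vehicle level. Of 27022 probe sets tested with limma, at or above the 40th percentile of mean value, 0 had an adjusted p under 0.05 (0%), and the smallest adjusted p was 1 after rounding. At an unadjusted p under 0.05 there were 309 probe sets with higher values with modafinil (1.14%) and 565 with lower values (2.09%), together 874 (3.23%), where 5% of the probe sets is 1351. The excess of lower values moved with scaling, with 460 higher and 520 lower after quantile normalization, and 361 and 443 after each array was centred on its median. The groups did not overlap for 46 probe sets in the higher direction (0.17%) and 83 in the lower (0.307%). Some genes below were named for a small p or for this lack of overlap, which is then not separate support. Without vehicle array 1 there were also 0 at an adjusted p under 0.05, with 225 higher (0.833%) and 493 lower (1.82%) at an unadjusted p under 0.05.

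Values at least 1 log2 unit higher with modafinil were measured for 16 probe sets (0.0592% of those tested), and none was lower by that much. Of these 16, 12 had a single gene symbol, and they belonged to 9 genes: Gbp2, Iigp1, Irgm2, Igtp, Gbp6, Ifi47, Gbp7, Gbp3 and Xdh. All 9 are among the 39 genes listed as interferon-induced, Xdh because it differed elsewhere in this series. The other 4 probe sets had several symbols or none and are not named. The filter used the mean over both groups, so a probe set dim with vehicle could pass it through its modafinil values. Vehicle means were 5.37 and 5.95 at the probe sets of Gbp2, 5.68 and 5.95 for Iigp1, 6.13 for Gbp6 and 6.09 for Ifi47. At those levels in both groups these probe sets would not have been tested. Of the 39 genes, 4 (Xdh, AW112010, Tnfsf10 and Trim21) were listed because they differed elsewhere in this series. The others were the guanylate-binding proteins, immunity-related GTPases, class I molecules, immunoproteasome subunits and type I interferon antiviral genes with a probe set of their own. Those lists were also chosen with earlier results of these data known. Counts and medians of the 39 genes are thus not independent evidence of direction. Of the 39, 37 had higher values with modafinil and 2 lower, with a median difference of 0.549, beside 43.5% of all tested probe sets higher, 56.5% lower and a median of −0.0146. Of the 32 whose mean over both groups passed the filter, 22 had an unadjusted limma p under 0.05, all higher, beside 1.14% of all tested probe sets. In 4 the groups did not overlap, all in the higher direction, beside 0.17% of all tested probe sets. Without vehicle array 1 the median was 0.528, and 37 were again higher, beside 38.3% of all tested probe sets.

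**Figure D1:**
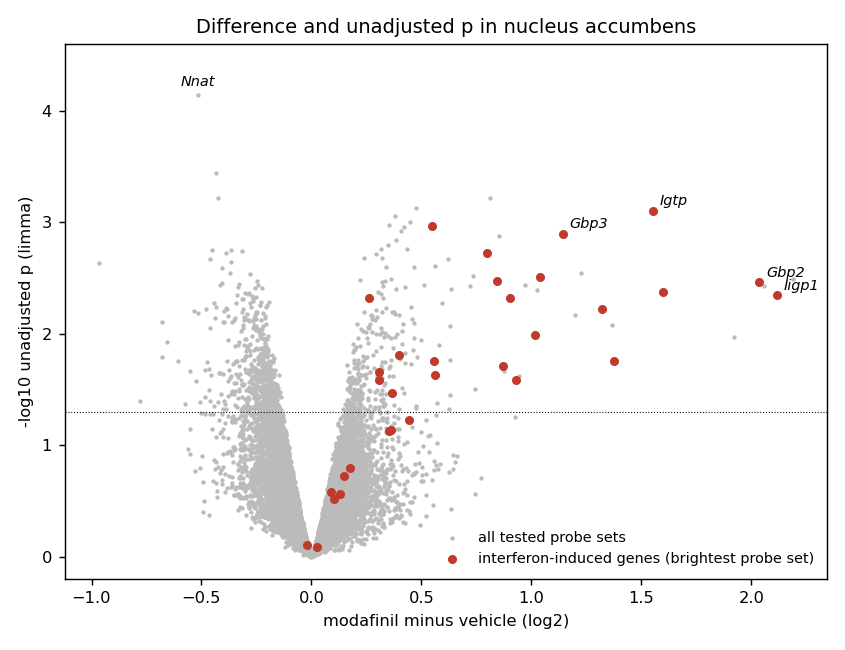
Difference between modafinil and vehicle (x axis, log2) against −log10 of the unadjusted limma p (y axis) for 27022 probe sets in nucleus accumbens. Red points are the interferon-induced genes at their brightest probe set, the dotted line marks p of 0.05, and Igtp, Gbp3, Gbp2 and Iigp1 lie at the right with differences of 1.14 to 2.12.

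The immunity-related GTPases, which act on membranes around intracellular pathogens, had higher values for 5 of 5 genes, with a median difference of 1.55. Igtp read 7.09, 7.08, 7.04, 6.93 and 6.99 in vehicle arrays 1 to 5 and 9.38, 8.87, 7.92, 7.27 and 9.46 in modafinil arrays 1 to 5. Every modafinil array was above every vehicle array, although array 4 exceeded the highest vehicle array only slightly. The difference was 1.55 (SE 0.35), a 2.93-fold higher mean, with an unadjusted limma p of 7.94e-04 and an adjusted p of 1. Iigp1 read 5.87, 5.88, 6.13, 5.83 and 6.06 with vehicle and 9.41, 9.02, 7.20, 5.53 and 9.19 with modafinil. Here modafinil array 4 was the lowest of all 10 arrays, so the groups overlapped despite a mean difference of 2.12 (SE 0.61). Irgm2 read 6.15, 6.58, 6.33, 6.46 and 6.42 with vehicle and 9.04, 8.35, 7.15, 6.27 and 9.10 with modafinil, a difference of 1.60 (SE 0.46). Array 4 again lay within the vehicle range. The differences of Ifi47 and Irgm1 were 1.32 (SE 0.40) and 0.90 (SE 0.26).

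The guanylate-binding proteins, GTPases that attack the membranes of pathogens, also had higher values for 5 of 5 genes, with a median difference of 1.14. Gbp3 read 7.69, 7.45, 7.75, 7.51 and 7.40 with vehicle and 9.52, 9.01, 8.13, 7.77 and 9.08 with modafinil. The groups did not overlap, and modafinil array 4 was just above vehicle array 3. The difference was 1.14 (SE 0.27), with an unadjusted limma p of 1.26e-03. Gbp2 read 5.79, 6.10, 6.17, 5.91 and 5.80 with vehicle and 9.41, 8.86, 6.72, 5.97 and 8.99 with modafinil. Its mean was 4.10-fold higher, but array 4 was within the vehicle range. Differences for the other members were 1.38 (SE 0.50) for Gbp6, 1.04 (SE 0.28) for Gbp7 and 1.03 (SE 0.36) for Gbp8, which was below the filter on dim probe sets and was not tested.

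**Figure D2:**
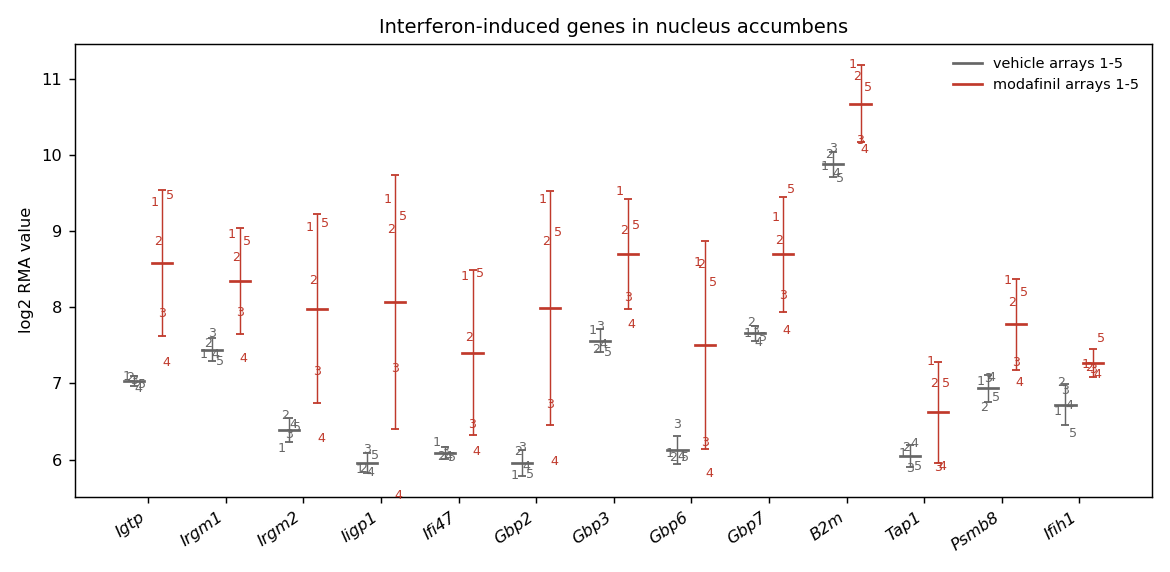
Log2 value (y axis) of 13 interferon-induced genes in each array, with digits giving the array number, bars the group mean and whiskers 1 SD (n = 5 per group; grey vehicle, red modafinil). Modafinil arrays 1, 2 and 5 lie high for the GTPases, array 3 lies between and array 4 lies near the vehicle arrays.

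Antigen presentation genes had smaller differences at their brightest probe sets. B2m, the light chain of every class I molecule, read 9.85, 10.01, 10.09, 9.76 and 9.69 with vehicle and 11.20, 11.04, 10.19, 10.07 and 10.89 with modafinil, a difference of 0.80 (SE 0.20). Modafinil array 4 fell just inside the vehicle range. At a second B2m probe set the groups did not overlap (difference 0.85, SE 0.21). H2-M3, a nonclassical class I heavy chain, read 7.51 to 7.64 with vehicle and 7.70 to 8.05 with modafinil, without overlap, a difference of 0.26 (SE 0.08). For H2-K1, a classical heavy chain, it was 0.31 (SE 0.12). H2-D1, another classical heavy chain, has 9 probe sets, and the 5 tested disagreed. The difference was 0.15 (SE 0.11) at the brightest and 0.30, 0.47, 0.81 and −0.23 at the other 4, and such genes share sequence with close relatives. Psmb8 and Psmb9, catalytic subunits of the immunoproteasome that cuts peptides for presentation, differed by 0.84 (SE 0.23) and 0.56 (SE 0.20). Tap1, a subunit of the transporter that carries those peptides, read 6.08, 6.16, 5.88, 6.22 and 5.91 with vehicle and 7.29, 7.00, 5.90, 5.92 and 7.00 with modafinil. Arrays 1, 2 and 5 were above all vehicle arrays and arrays 3 and 4 were not. The Tap1 vehicle mean of 6.05 was below the filter level, so this probe set was tested only through its modafinil values. At its other probe sets, all below the filter, Tap1 differed by −0.02 (SE 0.09), −0.03 (SE 0.07) and 0.07 (SE 0.09). The chaperones Calr, Canx and Pdia3 of the loading complex differed by 0.05 (SE 0.13), −0.00484 (SE 0.10) and −0.11 (SE 0.12). Of 6 class II antigen presentation genes 5 had higher values, with a median difference of 0.128, and H2-DMa differed by −0.18 (SE 0.22). H2-Aa differed by 0.39 (SE 0.14) at its brightest probe set. At its other probe sets it differed by 1.55 (SE 0.51), 0.28 and 0.14, and all lay below the filter. H2-Eb1, also below the filter, differed by 0.49 (SE 0.18).

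Among the type I interferon antiviral genes, 16 of 17 had higher values, with a median difference of 0.362. Ifih1, a cytosolic sensor of double-stranded RNA, read 6.64, 7.02, 6.91, 6.71 and 6.34 with vehicle and 7.25, 7.22, 7.18, 7.12 and 7.59 with modafinil. All 5 modafinil arrays were above all vehicle arrays, array 4 included, and the difference was 0.55 (SE 0.13). Ifit3, Rtp4 and Rsad2, induced antiviral proteins, differed by 0.44 (SE 0.21), 0.56 (SE 0.22) and 0.36 (SE 0.18). Mx2, an antiviral GTPase below the filter, had a difference of −0.04 (SE 0.07).

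Receptors and transcription factors of the pathway differed in direction. Of 9 receptors, kinases and feedback genes 1 had a higher value at its brightest probe set, with a median difference of −0.0491. Of the 8 tested, 0 had an unadjusted limma p under 0.05, beside 3.23% of all tested probe sets. The receptor subunits Ifngr1 and Ifnar1 differed by 0.06 (SE 0.08) and −0.11 (SE 0.08), and the feedback inhibitor Socs1 by −0.10 (SE 0.11). Socs3, another feedback gene, differed by −0.06 (SE 0.10) at its brightest probe set. At its other probe sets it differed by 0.66 (SE 0.40) and, below the filter, by 0.48 (SE 0.23). Among 9 transcription factors 8 had higher values, with a median of 0.177. Irf1, which is itself interferon-induced, read 7.44, 7.84, 7.68, 7.63 and 7.51 with vehicle and 8.75, 8.05, 7.59, 7.47 and 8.23 with modafinil, high in arrays 1, 2 and 5. Nlrc5, the activator of class I genes, had a difference of 1.10 (SE 0.38) below the filter. Of 11 chemokines 5 had higher values, with a median of −0.0231. Cxcl10, an interferon-induced chemokine below the filter, read 4.86 to 4.94 with vehicle and 5.51 and 6.10 in modafinil arrays 1 and 5. The other modafinil arrays averaged lower, with a modafinil mean of 5.28 and a difference of 0.38 (SE 0.20). Cxcl12, a chemokine of leukocyte and progenitor homing, differed by −0.38 (SE 0.13) at its brightest probe set. It differed by 0.05 (SE 0.26) at another tested probe set and −0.12 (SE 0.09) at one below the filter.

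The pattern over arrays was shared by most of the list. Of the 39 interferon-induced genes, 34, 34, 21, 6 and 32 lay above the highest vehicle array in modafinil arrays 1 to 5, where 13.5%, 16.9%, 28.3%, 21.3% and 13.3% of all tested probe sets did. The median of these genes minus their vehicle mean was 0.766, 0.961, 0.177, −0.0539 and 0.728 in modafinil arrays 1 to 5, and between −0.0898 and 0.0742 in vehicle arrays. The SD among modafinil arrays was 0.96 for Igtp and 1.54 for Gbp2, against 0.06 and 0.17 among vehicle arrays. For these genes the modafinil arrays thus spread more widely than the vehicle arrays.

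**Figure D3:**
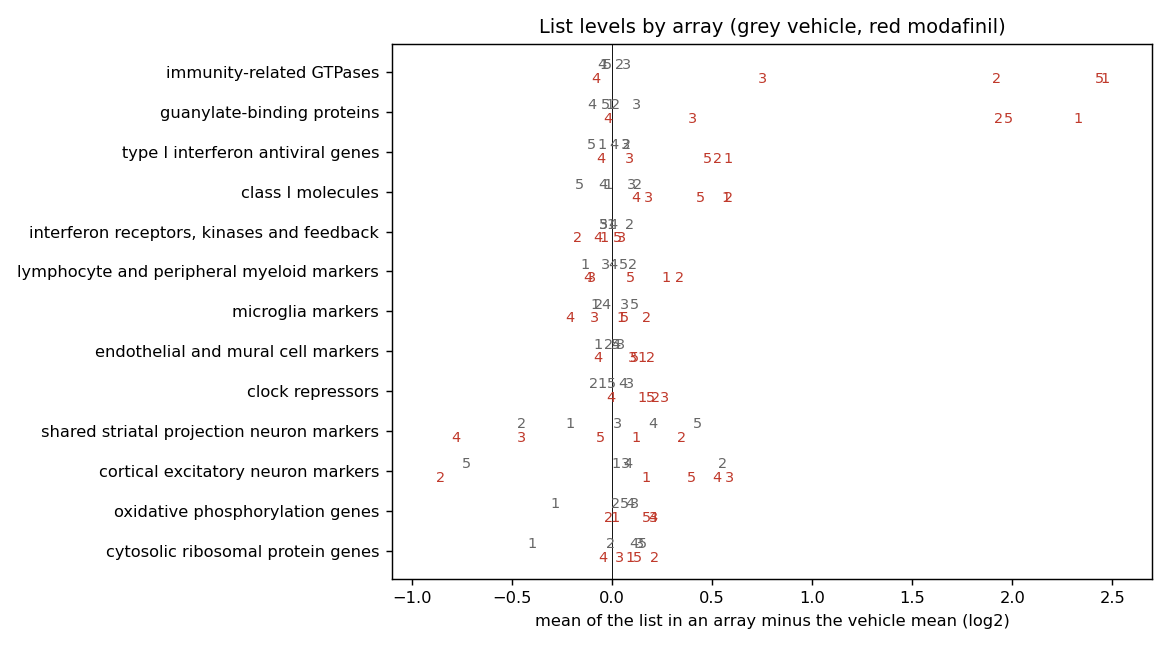
Mean log2 value of a gene list in an array minus the vehicle mean of that list (x axis) for 13 lists (y axis), with digits giving the array number (grey vehicle, red modafinil). The 2 GTPase lists separate modafinil arrays 1, 2, 3 and 5 from vehicle, striatal and cortical markers spread within both groups, and vehicle array 1 is lowest for oxidative phosphorylation and ribosomal protein genes.

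Markers of immune and vessel cells were examined beside these values. Of 12 microglia markers 6 had higher values, and the list's mean lay between 8.5 and 8.7 in vehicle arrays and 8.38 and 8.76 in modafinil arrays. Of 10 lymphocyte and peripheral myeloid markers 7 had higher values. That list's mean was 5.23 to 5.47 with vehicle and 5.25 to 5.7 with modafinil, with modafinil arrays 1 and 2 highest by 0.272 and 0.339 over the vehicle mean and arrays 3 and 4 below it. Cd3e, a T cell receptor subunit, differed by −0.12 (SE 0.11). Gzma, a protease of cytotoxic lymphocytes below the filter, read 5.47 in modafinil array 2 against 4.11 to 4.31 with vehicle. Other modafinil arrays averaged lower, with a modafinil mean of 4.57 and a difference of 0.33 (SE 0.22). The part of these cell types in the interferon pattern was not tested. In such tissue RNA, fewer cells of a type and less RNA per cell cannot be told apart. The polyadenylated control RNAs added at labelling averaged 9.49 ± 0.487 (SD, n = 5) with modafinil and 8.99 ± 0.218 with vehicle (exact permutation test, two-sided, p = 0.0714, adjusted over 8 array measures 0.296). They read 9.90, 9.35, 8.70, 9.80 and 9.71 in modafinil arrays 1 to 5. With their level as a covariate, an alternative chosen after seeing the data, the difference of Tap1 was 0.27 (SE 0.30) in place of 0.57, that of Gbp6 0.93 (SE 0.63) in place of 1.38 and that of Igtp 1.29 (SE 0.45) in place of 1.55, and 296 probe sets were higher and 299 lower at an unadjusted p under 0.05.

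Of 17 endothelial and mural cell markers 12 had higher values, with a median difference of 0.0419. Icam2, an adhesion molecule of endothelial cells, read 6.05, 6.08, 6.14, 6.27 and 6.24 with vehicle and 6.69, 6.88, 6.33, 6.45 and 6.81 with modafinil. The groups did not overlap, and the difference was 0.48 (SE 0.11). Its vehicle mean of 6.16 was below the filter level, so this probe set was tested only through its modafinil values. Slc2a1, the glucose transporter of the blood-brain barrier, read 9.86, 10.31, 10.15, 9.94 and 10.07 with vehicle and 10.71, 10.79, 10.29, 10.25 and 10.64 with modafinil. Arrays 3 and 4 overlapped with vehicle array 2 at this probe set, with a difference of 0.47 (SE 0.12), and the groups did not overlap at a dimmer one (0.41, SE 0.10). Vwf, an endothelial clotting factor carrier, read 7.46, 7.41 and 7.06 in modafinil arrays 1, 2 and 5 against 6.35 to 6.91 with vehicle, and 6.52 and 6.27 in arrays 3 and 4. Kdr, an endothelial growth factor receptor, differed by −0.16 (SE 0.10). Pcolce, a procollagen-processing enhancer of fibroblasts, read 6.13 to 6.54 with vehicle and 6.60 to 6.70 with modafinil, without overlap. Its difference was 0.35 (SE 0.08).

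The smallest p of all named genes belonged to Nnat, an imprinted gene for a membrane proteolipid of developing and adult neurons. Nnat read 9.31, 9.59, 9.35, 9.38 and 9.16 with vehicle and 8.65, 8.91, 8.90, 8.89 and 8.87 with modafinil. All modafinil arrays were below all vehicle arrays, and array 4 did not stand apart as it did for the interferon genes. The difference was −0.51 (SE 0.09), a mean 0.700 times that of vehicle, with an unadjusted limma p of 7.17e-05 and an adjusted p of 1. Of the 13 imprinted genes listed 8 had lower values, with a median of −0.0704, and Snrpn, Mest and Dlk1 differed by 0.14 (SE 0.09), −0.09 (SE 0.08) and −0.49 (SE 0.47).

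Chd7, Btg1, Rnd3 and Dlx6os1 were among the genes with lower values and no overlap, as were 0.307% of all tested probe sets. Chd7, a chromatin remodeller, read 7.15 to 7.59 with vehicle and 6.87 to 7.09 with modafinil, a difference of −0.42 (SE 0.09). Btg1, an antiproliferative factor, differed by −0.43 (SE 0.09) and Rnd3, a small GTPase that loosens the actin skeleton, by −0.37 (SE 0.10), both without overlap. Dlx6os1, a noncoding RNA of forebrain inhibitory neurons that is also among the striatal markers, read 7.67, 7.96, 7.77, 7.83 and 7.99 with vehicle and 7.62, 7.65, 7.28, 7.37 and 7.47 with modafinil, also without overlap. Trhr, the thyrotropin-releasing hormone receptor, had a difference of −0.96 (SE 0.25), but its groups overlapped. Fos, an immediate early gene, read 9.24 to 10.66 with vehicle and 9.18 to 11.11 with modafinil, and of 18 immediate early genes 8 had higher values and 0 had an unadjusted limma p under 0.05.

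**Figure D4:**
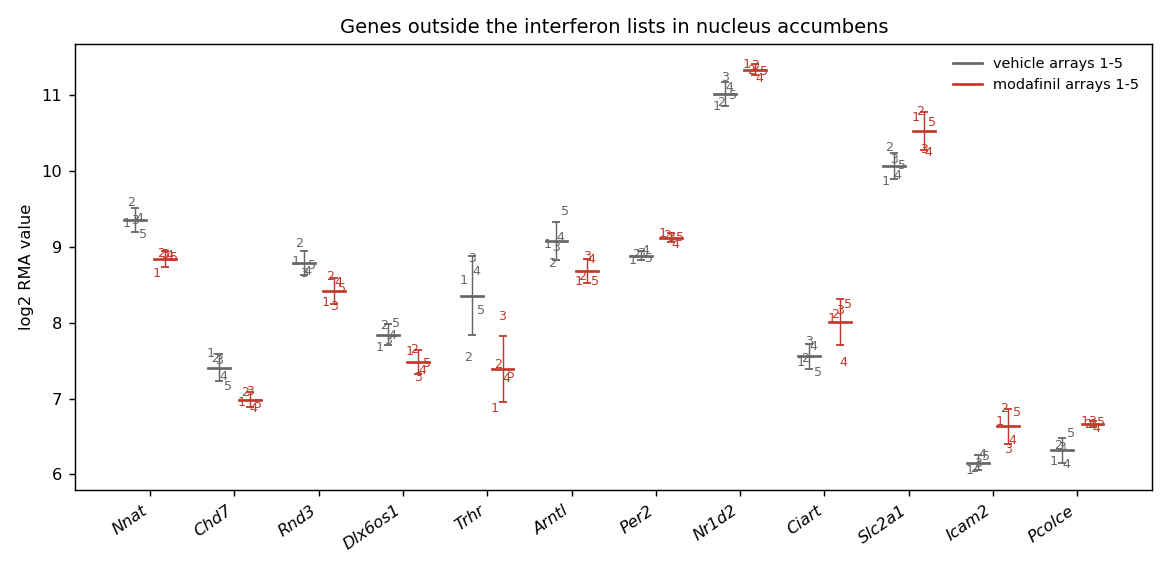
Log2 value (y axis) of 12 genes outside the interferon lists in each array, with digits giving the array number, bars the group mean and whiskers 1 SD (n = 5 per group; grey vehicle, red modafinil). Nnat, Chd7, Rnd3 and Dlx6os1 are lower with modafinil in every array, and Per2, Icam2 and Pcolce higher in every array.

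The circadian clock is a loop in which Arntl and Clock switch on, through E-boxes, the repressors that later shut them off. Of 10 clock repressors 9 had higher values with modafinil, with a median difference of 0.154. Per2, a core repressor, read 8.82, 8.90, 8.91, 8.96 and 8.84 with vehicle and 9.18, 9.15, 9.12, 9.04 and 9.13 with modafinil. The groups did not overlap and array 4 was the lowest modafinil array, with a difference of 0.24 (SE 0.06) and an unadjusted limma p of 2.10e-03. Nr1d2, a nuclear receptor that represses Arntl, read 10.85 to 11.24 with vehicle and 11.23 to 11.41 with modafinil, overlapping only at vehicle array 3, a difference of 0.32 (SE 0.08). Ciart, whose promoter above holds 3 E-boxes, read 7.47, 7.53, 7.75, 7.68 and 7.34 with vehicle and 8.05, 8.12, 8.16, 7.48 and 8.24 with modafinil. Array 4 lay within the vehicle range and the other modafinil arrays above it. Arntl read 9.04, 8.78, 8.99, 9.13 and 9.47 with vehicle and 8.55, 8.61, 8.87, 8.84 and 8.54 with modafinil, a difference of −0.40 (SE 0.12) with overlap at vehicle array 2. An E-box was found in 4 of the 8 repressor genes with a promoter in the table. The hour at which each mouse was killed was not in the labels, and its part was not tested.

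Levels of striatal and cortical neuron markers varied within both groups. Of 18 shared markers of striatal projection neurons 15 had lower values with modafinil, with a median of −0.182, and all 18 without vehicle array 1. All 5 direct and all 3 indirect pathway markers were also lower. Drd1 read 11.30, 11.07, 11.64, 11.81 and 12.01 with vehicle and 11.73, 11.97, 10.92, 10.58 and 11.48 with modafinil, a difference of −0.23 (SE 0.26) that was −0.04 without modafinil array 4. Modafinil arrays 3 and 4 and vehicle array 2 were the lowest. The mean of 16 cortical excitatory neuron markers was highest in those same 3 arrays, by 0.589, 0.522 and 0.555 over the vehicle mean, and lowest in modafinil array 2 and vehicle array 5, by −0.855 and −0.724. The differences of both marker lists were thus smaller than their spread within a group. With the striatal level of each array as a covariate, an alternative chosen after seeing the data, Igtp differed by 1.73 (SE 0.26, adjusted limma p 0.056) and Nnat had the same adjusted p of 0.056, so the call did not change. For both genes the adjusted p ranged from 0.056 to 1 over all alternatives.

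Genes of oxidative phosphorylation, the energy chain of mitochondria, had higher values for 67 of 73, with a median of 0.116, but 0 had an unadjusted limma p under 0.05. Without vehicle array 1, the lowest array of this list, the count was 64 of 73 and the median 0.0515. Atp5pb, an ATP synthase subunit, read 11.83, 12.48, 12.51, 12.53 and 12.50 with vehicle and 12.54, 12.51, 12.70, 12.76 and 12.68 with modafinil. Vehicle array 1 stood below all others. For cytosolic ribosomal protein genes that array decided the direction, with 41 of 47 higher and a median of 0.086 in all arrays against 21 of 47 and −0.00775 without it.

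The same comparison in the other regions used their own vehicle arrays. The median difference of the 39 interferon-induced genes was 0.654 in the ventral tegmental area and 0.613 in the prefrontal cortex, beside 0.549 in the nucleus accumbens. Igtp differed by 1.92 in the ventral tegmental area and 1.46 in the prefrontal cortex, and Gbp2 by 2.44 and 2.42. The difference between regions was tested as a contrast of 6 group means in limma. It was past an adjusted p of 0.05 for 74 probe sets between the accumbens and the ventral tegmental area (0.274%) and for 0 between the accumbens and the prefrontal cortex (0%). At an unadjusted p under 0.05 the accumbens difference was higher for 6.57% and lower for 4.66% in the first contrast, and higher for 2.87% and lower for 2.05% in the second. None of the 34 interferon-induced genes tested there was called in either contrast, with smallest adjusted p of 0.439 and 0.914. In 66 of the 74 the accumbens difference was the lower one, and in 73 the difference in the ventral tegmental area was the larger in size. The median size was 0.124 in the accumbens and 0.836 in the ventral tegmental area. Neuron markers also differed between the ventral tegmental groups. Dopamine neuron markers had a median difference of −1.32 there, with 0 of 6 higher. Septal, thalamic and hypothalamic neuron markers had a median of 0.46, with 7 of 9 higher. The part of the cells sampled in the contrast was not tested. Nnat differed by −0.15 in the ventral tegmental area and 0.31 in the prefrontal cortex, and its contrast with the ventral tegmental area had an adjusted limma p of 0.806.

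**Figure D5:**
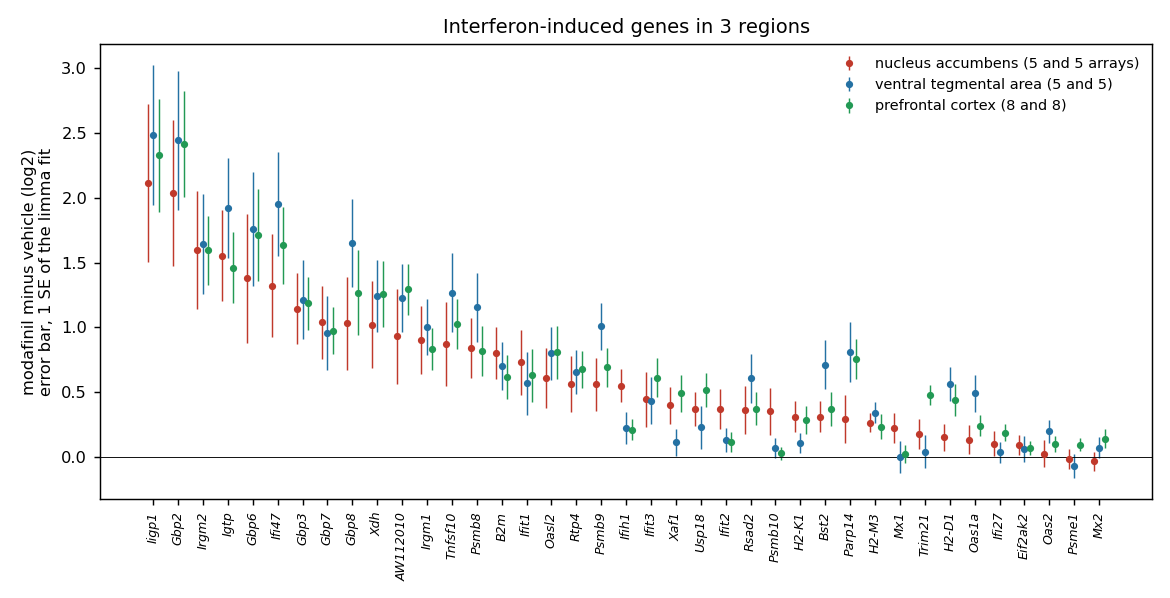
Difference between modafinil and vehicle (y axis, log2) for 39 interferon-induced genes (x axis, ordered by the accumbens difference) in nucleus accumbens, ventral tegmental area and prefrontal cortex, with whiskers of 1 SE of the limma fit. The 3 regions have similar sizes for Igtp and Gbp2, and the medians are 0.549, 0.654 and 0.613. The genes were chosen with earlier results of these data known.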

How the data were processed

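The authors deposited 1 table of log2 values for 36 arrays and 45101 probe sets, computed with RMA (a background correction, normalization and summary of probe intensities) per the submitters' processing notes, with no version given there. The 10 nucleus accumbens columns were matched to samples by title, and no 2 arrays were identical. RMA equalises arrays, so a shift of all genes is not visible. A single gene symbol was available for 34945 probe sets, while 932 had several and 9160 none and are not named, and 64 controls were left out. Modafinil was compared with vehicle by limma's moderated test (limma 3.58.1, R 4.3.3), with the Benjamini-Hochberg adjustment over 27022 probe sets at or above the 40th percentile and a threshold of 0.05. Each gene was read at its brightest probe set, except those chosen by p. Genes were named as the 12 smallest p per direction, the 8 largest non-overlapping differences per direction, list members and the 5 smallest p of each contrast between regions. The members and lists were chosen with earlier results of these data known. The fit was tested on simulated data. Alternatives covered the filter, normalization, each array left out, a replicate block, array weights, covariates and a joint fit.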

Additional observations from a re-analysis of the deposited data

Results flagged for a closer look

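Of 174 groups of 5 arrays examined for an array far from the rest, 9 held one, where chance gives about 1 in 20. Vehicle array 1 was the array concerned for the 99th percentile of all values (11.43), the bright probe sets (−0.76 against the other arrays) and the mean of oxidative phosphorylation genes (10.9). The vehicle arrays also held a low value of 6.69 for septal, thalamic and hypothalamic neuron markers, in vehicle array 5, and a high value of 6.46 for Gbp6, in vehicle array 3. Among modafinil arrays, Ciart was low at 7.48 in array 4, Nnat low at 8.65 in array 1, Ifih1 high at 7.59 in array 5, and the bright probe sets highest in array 5, at 0.11 against the other arrays.

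The modafinil difference itself differed between the accumbens and the ventral tegmental area for 74 probe sets. The genes with the smallest p were Npas2, a clock transcription factor, at −0.87 (accumbens minus ventral tegmental area), Synpo2, an actin-binding protein, at −1.37, Plekhg1 at −1.46, Gjc1, a connexin, at −0.79, and Prkcd, a protein kinase C, at −1.72. Prkcd differed by −0.05 (SE 0.08) in the accumbens and 1.67 in the ventral tegmental area. Neuron markers differed between the ventral tegmental groups as well, as given above, and the part of the cells sampled was not tested.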

How the results depend on the processing

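The count of probe sets past an adjusted p of 0.05 was 0 in every alternative run except 1, and ranged from 0 to 1 when 1 array was left out. The 1 call came without modafinil array 4, for a probe set with several symbols that differed by 2.7 (adjusted limma p 0.0111) against 2.06 in all arrays. The 42 genes followed kept their direction in all alternatives that tested them. With the replicate block the count was 0 and the unadjusted counts were 269 higher and 423 lower. Whether the replicate numbers pair the arrays is not known. Deviations of same-numbered arrays correlated at −0.114, −0.526, 0.147, −0.145 and −0.0528. Taken from the mean of only 5 arrays per group, such values cannot decide it. Unadjusted counts were less stable, at 225 to 941 higher and 337 to 1134 lower when 1 array was left out (941 and 1113 without modafinil array 2, 543 and 1134 without vehicle array 2), 1235 and 2628 with array weights, 690 and 823 without a filter, and 603 and 827 with all 36 arrays in 1 fit. The count between the accumbens and the ventral tegmental area was 74, 6 in a fit of those 20 arrays alone, 166 after quantile normalization of all arrays, 54 with the replicate block, and 49 to 177 when 1 array was left out, 177 without vehicle array 2 and 49 without vehicle array 5. The cause was not tested. The count against the prefrontal cortex was 0 in all alternatives. With the level of the added control RNAs as a covariate, chosen after seeing the data, 5 of the 42 genes moved by over 1.5 times: Tap1 from 0.57 to 0.27, AW112010 from 0.93 to 0.47, Tnfsf10 from 0.87 to 0.54, Trhr from −0.96 to −0.53 and Cxcl12 from −0.38 to −0.25. The share of tested probe sets with higher values was then 51.7%, against 43.5%, and was 48.0% after quantile normalization.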

Other observations

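Some gene groups not described above had modest differences. Of 8 glucocorticoid-responsive genes 7 had higher values with modafinil, with a median difference of 0.152 that was 0.0785 without vehicle array 1. Tsc22d3, a glucocorticoid-induced regulator, differed by 0.26 (SE 0.11). Of 11 astrocyte markers 9 had higher values, with a median of 0.112 that was 0.0252 without vehicle array 1. S100b, an astrocyte calcium-binding protein, read 9.80, 9.85, 10.10, 9.83 and 9.86 with vehicle and 10.05, 10.16, 10.14, 10.14 and 10.07 with modafinil, so that only vehicle array 3 overlapped with the modafinil arrays. Crh, the corticotropin-releasing hormone gene, differed by 0.63 (SE 0.28), and Nos1, the neuronal nitric oxide synthase of striatal interneurons, by −0.17 (SE 0.07) without overlap. None of these had an adjusted limma p under 0.05.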
